A study of Mus musculus with 6 samples.

Results

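Interferon-stimulated genes are the genes whose transcription rises when a cell senses an interferon, and many of their products block viral replication or the growth of intracellular microbes. The 38 genes described here are members of this class outside the OAS family of oligoadenylate synthetases, chosen by symbol from a list of such genes. All 38 were among the 19386 genes of the authors' deposited expression table, and all 38 were also among the 12082 genes to which that table gives an adjusted p-value. The study sequenced RNA from macrophages grown from the bone marrow of wild-type C57BL/6 mice, with 3 libraries for exposure to cigarette smoke and 3 for room air. In both groups marrow cells cleared of erythrocytes were cultured with supernatant of L929 cells, a fibroblast line that secretes the macrophage growth factor, and were harvested on day 11. The labels give neither the age of the mice nor the dose and length of the exposure, and by the series' design text it was the mice that were exposed. The protocol splits the marrow of each mouse into fractions, but no label ties a library to a mouse, so the p-values of the splicing test below measure the spread between these samples, which may be technical. The expression p-values are the authors' own, from a fit that also used other libraries.

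Type I interferons bind the receptor IFNAR, whose kinases JAK1 and TYK2 activate the complex ISGF3. This complex, which contains STAT2 and IRF9, binds the interferon-stimulated response element (ISRE) in the promoters of its targets. Interferon gamma acts through a separate promoter element, the gamma-activated site (GAS). Macrophages hold a low tonic level of this signalling at rest and raise it strongly after contact with microbial products.

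The gene class as a whole stood close to the median of all genes after smoke. At an adjusted p under 0.05 in the authors' deposited table, 4 of the 38 members were lower after smoke and 0 were higher, where 7.69% of all tested genes passed (3.53% lower and 4.15% higher). These 4, which are the called members in what follows, were Eif2ak2, Irf9, Herc6 and Samd9l. At an adjusted p under 0.1 in the authors' deposited table, 6 members were lower and 2 higher (12.8% of all tested genes passed), and at an adjusted p under 0.01 there were 0 (3.03% of all). With a trend in transcript length and GC content removed, as described below, 0 members passed at 0.05 (1.27% of all). The median log2 fold change of the members in the authors' deposited table was -0.032, against -0.0029 over all genes tested, and the median absolute value was 0.24 against 0.23. By sign alone 22 members were lower and 16 higher in the authors' deposited table. An unadjusted p under 0.05 was found in the authors' deposited table for 11 members (28.9%), against 22.8% of all genes tested, with 6 of the 11 lower and 5 higher. All 5 of the higher ones missed the adjusted threshold, and 4 of them were the guanylate-binding proteins.

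A missed threshold does not show that a gene is the same in both groups, so the intervals matter as much as the calls. From the standard errors of the authors' deposited table, the 95% interval of the fold change held no change for 27 of the 38 members. For 11 members that interval lay wholly within 1.5-fold in either direction. The standard errors of the members in the authors' deposited table ranged from 0.091 for Irf9 to 0.63 for Gbp5, and they rest on a fit to 24 libraries of which 18 are not analysed here.

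**Figure D1:**
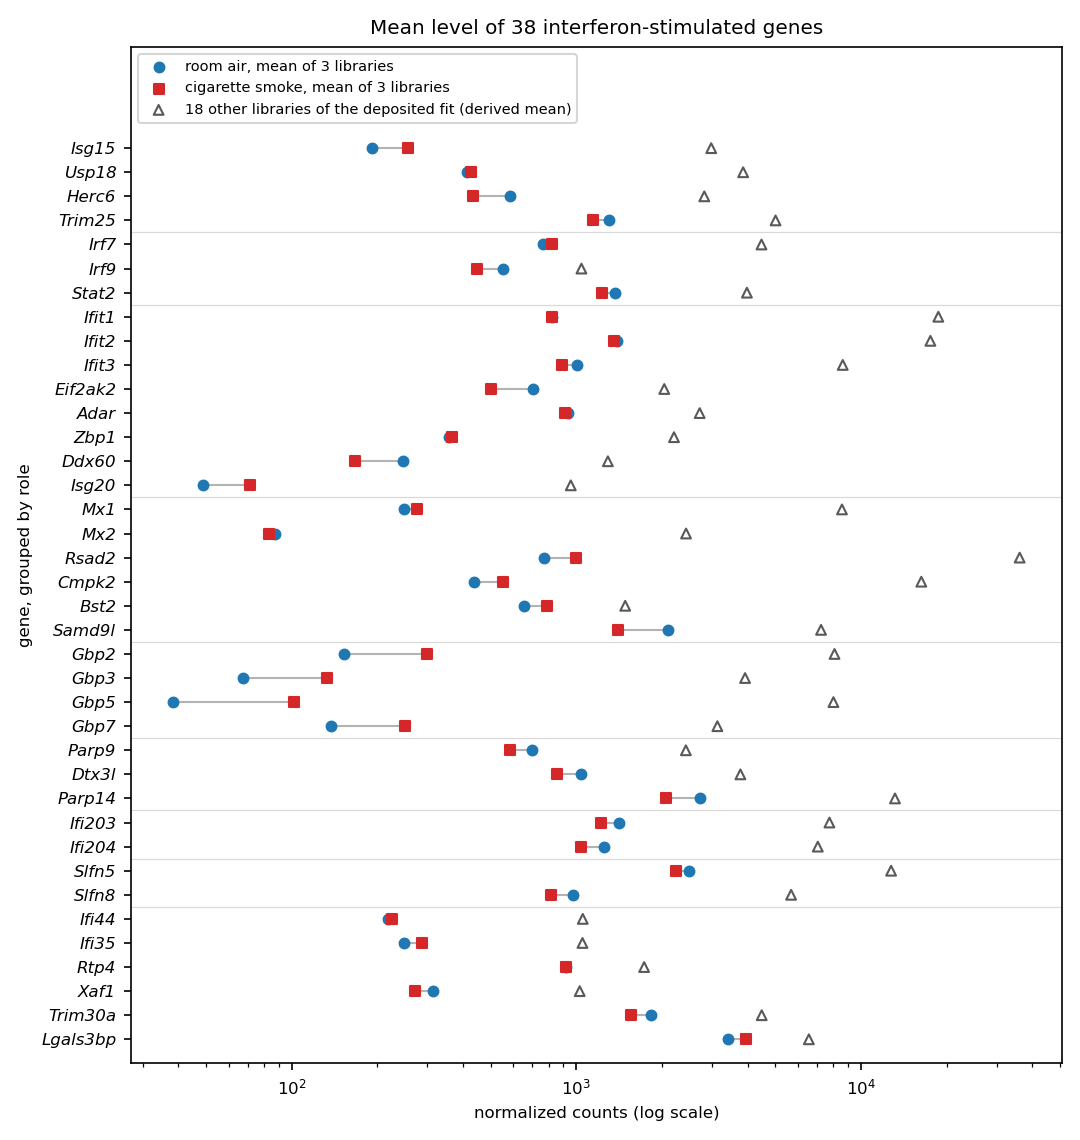
Mean level of each of the 38 genes in normalized counts on a log axis, by role, from the authors' deposited table. Circles are the mean of the 3 room air libraries, squares the mean of the 3 cigarette smoke libraries, and triangles the mean of the 18 other libraries of the deposited fit, derived from the 24-library mean; the triangle lies to the right of both other marks for all 38 genes.

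**Figure D2:**
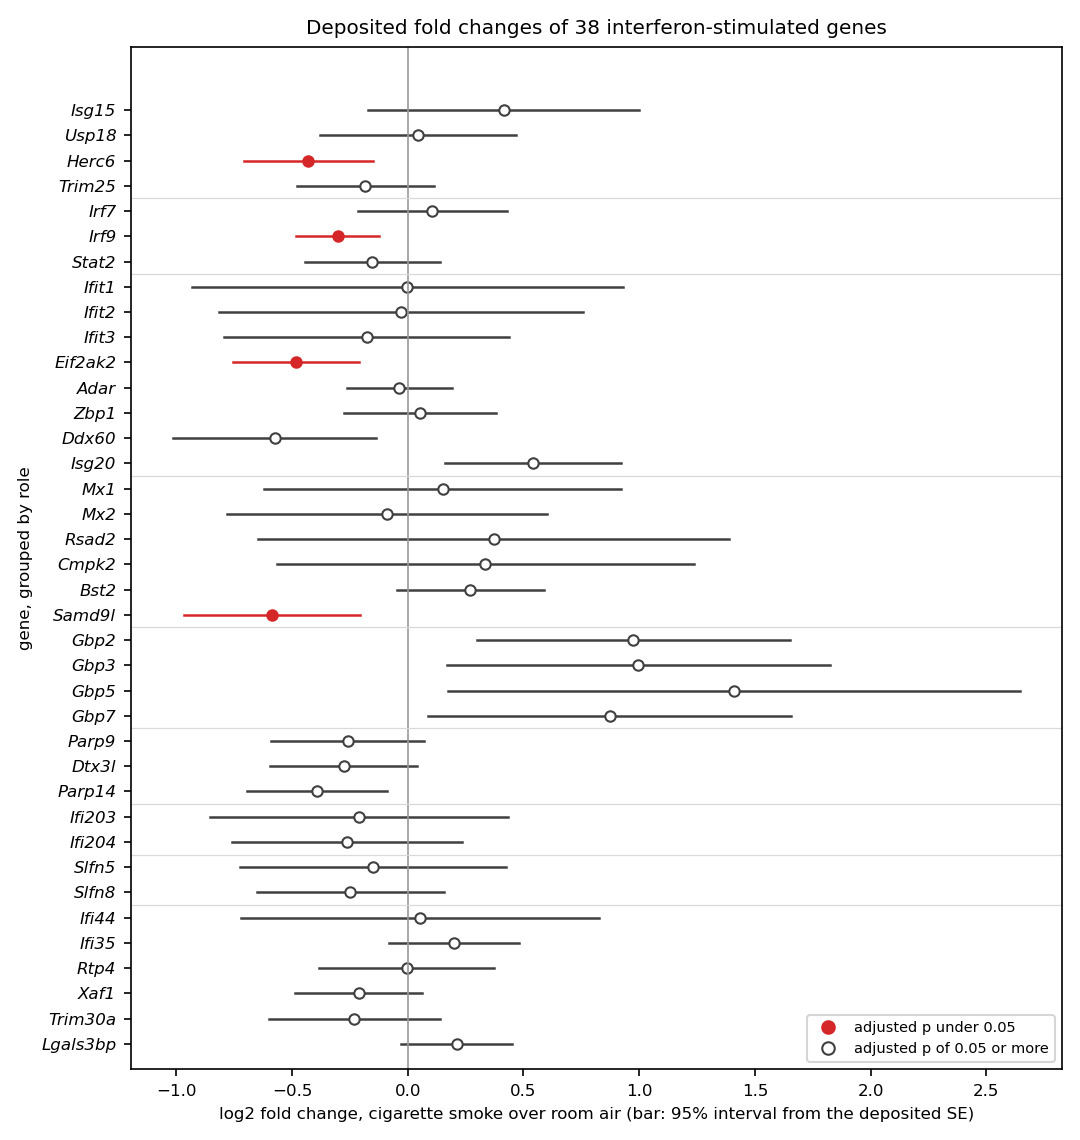
Log2 fold change of each gene, cigarette smoke over room air, with its 95% interval from the deposited standard error, by role. The 4 filled points are the genes with an adjusted p under 0.05 in the authors' deposited table, all to the left of zero, and the 4 guanylate-binding proteins lie farthest to the right, from 0.87 to 1.41.

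The promoters of these genes were read for the sequences through which interferons act. Because the members were chosen as known interferon-stimulated genes, a raised share of these sequences could follow from that choice alone. The shares are therefore given as a description. Of the 38 members, 30 had at least 1 promoter window in RefSeq (build GRCm38.p6), each 250 bases before to 50 bases after an annotated start, for 40 windows in all. The ISRE core, spelled GAAA, any 2 bases and GAAA again (on the other strand TTTC, any 2 bases, TTTC), was found on either strand in 18 of these 40 windows (45%), against 3.44% of the 32851 windows of the table. It occurred in 16 genes: Bst2, Ddx60, Eif2ak2, Gbp2, Gbp3, Gbp5, Gbp7, Ifi203, Ifit1, Ifit3, Isg15, Rsad2, Slfn5, Slfn8, Stat2 and Trim30a. The GAS motif, TTCNNNGAA, which reads the same on both strands, was found in 8 of 40 windows (20%), against 8.3% of all windows. The letters of each motif can overlap further matches of the same motif, and a match describes the sequence, not occupancy.

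The stretches printed here show how the core sits in the 4 guanylate-binding protein genes, which had the highest fold changes, and in Ifit1, Isg15 and Rsad2, textbook targets of ISGF3. Each runs 5′ to 3′ along the strand of the gene, with the matches in capitals.
Gbp2 (chr3:142620584-142620633, plus strand): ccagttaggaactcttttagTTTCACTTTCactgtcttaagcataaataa
Gbp3 (chr3:142559979-142560034, plus strand): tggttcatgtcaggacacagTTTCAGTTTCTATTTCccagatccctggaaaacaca
Gbp5 (chr3:142496749-142496798, plus strand): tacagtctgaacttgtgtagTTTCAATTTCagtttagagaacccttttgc
Gbp7 (chr3:142530263-142530312, plus strand): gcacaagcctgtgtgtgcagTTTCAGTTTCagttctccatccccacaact
Ifit1 (chr19:34640765-34640833, plus strand): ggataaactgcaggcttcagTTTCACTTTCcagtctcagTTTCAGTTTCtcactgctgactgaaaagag
Isg15 (chr4:156200855-156200916, minus strand): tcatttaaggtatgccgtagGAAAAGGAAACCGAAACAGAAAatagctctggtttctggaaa
Rsad2 (chr12:26456543-26456592, minus strand): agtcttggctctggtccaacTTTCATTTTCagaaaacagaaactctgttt
All 4 guanylate-binding protein genes carry the core in the TTTC orientation, 59 bases before the RefSeq start in Gbp2, 45 and 39 in Gbp3, 165 in Gbp5 and 53 in Gbp7. Isg15 holds 3 overlapping matches in the other orientation, from 78 to 66 bases before its start, and Ifit1 holds 2, at 104 and 85 bases. Of the 4 genes called lower, 1 had the core in its window, Eif2ak2, where it lies 18 bases after the start. For the other 3 these letters were not in the window, which says nothing of the factor.

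The transcription factors that carry the interferon signal to these promoters include a called gene, Irf9. Irf9, the DNA-binding subunit of ISGF3 (ENSMUSG00000002325.15, chromosome 14, 55603571 to 55610030, plus strand), fell in the authors' deposited table, from a mean of 554 to one of 449 normalized counts. The authors' deposited table gave it a log2 fold change of -0.30 (DESeq2 adjusted p 0.0200) with an SE of 0.091, the smallest among the 38 members. This change stayed at -0.30 without the trend in length and GC content (adjusted p 0.0638 with the DESeq2 standard error). Exons of Irf9 overlap those of Rnf31 on the same strand, so reads of the neighbour can enter its value. Stat2, its partner in the complex (ENSMUSG00000040033.16, chromosome 10, 128270559 to 128292849, plus strand), had means in the authors' deposited table of 1366 and 1229.7 normalized counts, where the log2 fold change was -0.15 (SE 0.15, DESeq2 adjusted p 0.592). The 95% interval of Stat2 from the authors' deposited table ran from -0.44 to 0.14. Irf7, which drives the transcription of interferon genes and is itself induced, stood at 763 and 822 normalized counts in the authors' deposited table, where the log2 fold change was 0.11 (SE 0.16).

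In the ISG15 system, which attaches the ubiquitin-like protein ISG15 to other proteins, 1 of 4 genes was called. Herc6, the main ligase for ISG15 in the mouse (ENSMUSG00000029798.11, chromosome 6, 57581000 to 57664632, plus strand), fell in the authors' deposited table, from a mean of 587 to one of 435 normalized counts. The authors' deposited table puts this at -0.43 on the log2 scale (SE 0.14, DESeq2 adjusted p 0.0379), and exons of Gm45193 overlap Herc6 on the same strand. The Herc6 value was -0.15 without the trend in length and GC content (adjusted p 0.795 with the DESeq2 standard error). Isg15 itself (ENSMUSG00000035692.6, chromosome 4, 156199424 to 156200818, minus strand) had the opposite sign, with means of 191 and 256 normalized counts in the authors' deposited table and a deposited log2 fold change of 0.41 (SE 0.30, DESeq2 adjusted p 0.431). Usp18, which removes ISG15 and also restrains IFNAR signalling, had a log2 fold change of 0.044 (SE 0.22) in the authors' deposited table. For Trim25, a ubiquitin ligase that acts on the RNA sensor RIG-I (ENSMUSG00000000275.16, chromosome 11, 88999376 to 89020293, plus strand), the authors' deposited table gave means of 1307 and 1148 normalized counts and a deposited log2 fold change of -0.18 (SE 0.15, DESeq2 adjusted p 0.511). The RNAs of the ligase Herc6 and of Isg15 thus lay on opposite sides of zero, and the interval of Isg15, from -0.17 to 1.00 in the authors' deposited table, held zero.

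Among the 8 effectors that bind RNA or other nucleic acids, Eif2ak2 had the lowest adjusted p of all members. Eif2ak2, the kinase PKR, which halts translation when it binds double-stranded RNA (ENSMUSG00000024079.4, chromosome 17, 78852564 to 78882573, minus strand), fell in the authors' deposited table, from 705 normalized counts in air to 503 after smoke. On the log2 scale this was a change of -0.48 (SE 0.14, DESeq2 adjusted p 0.0133) by the authors' deposited table. It was -0.32 without the trend in length and GC content (adjusted p 0.308 with the DESeq2 standard error). The helicase gene Ddx60 (ENSMUSG00000037921.15, chromosome 8, 61928087 to 62038244, plus strand) had the lowest fold change of this group, with means of 247 and 166 normalized counts in the authors' deposited table, where the log2 fold change was -0.57 (SE 0.22, DESeq2 adjusted p 0.0879). Isg20, an exonuclease that degrades RNA, had the opposite sign, at 48.6 and 71.2 normalized counts in the authors' deposited table, where its log2 fold change came to 0.54 (SE 0.19, DESeq2 adjusted p 0.0609). Neither Ddx60 nor Isg20 passed the threshold.

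The 3 Ifit genes, whose products bind viral RNA ends, lie within 200 kb of each other on chromosome 19 and gave the widest intervals in this group. Ifit1 had means of 819.7 and 819.03 normalized counts in the authors' deposited table and a deposited log2 fold change of -0.0013 (SE 0.48), with an interval from -0.93 to 0.93. Ifit2 (ENSMUSG00000045932.12, chromosome 19, 34550694 to 34576419, plus strand) stood at 1389 and 1361 normalized counts in the authors' deposited table, where its log2 fold change came to -0.029 (SE 0.40, DESeq2 adjusted p 0.980). Ifit3 had means of 1004 and 887 normalized counts in the authors' deposited table and a deposited log2 fold change of -0.18 (SE 0.31), and its near copy Ifit3b, which can share reads with it, had -0.15 (SE 0.30). Nearly equal means of Ifit1 therefore came with an interval that reaches almost 2-fold in each direction. Adar, the enzyme that converts adenosine to inosine in double-stranded RNA, had a log2 fold change of -0.036 in the authors' deposited table with a much smaller SE of 0.12. Zbp1, a sensor of Z-form nucleic acid that can trigger necroptosis, had 0.053 (SE 0.17) in the authors' deposited table.

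Samd9l, which restrains translation and cell growth, was the called gene with the largest change. Samd9l (ENSMUSG00000047735.14, chromosome 6, 3372257 to 3399572, minus strand) fell in the authors' deposited table, from 2102 normalized counts in air to 1399.7 after smoke, where the log2 fold change was -0.59 (SE 0.19, DESeq2 adjusted p 0.0383). Without the trend in length and GC content, Samd9l stood at -0.27 (adjusted p 0.686 with the DESeq2 standard error). The other 5 members of its group act on virions, viral ribonucleoproteins or nucleotides, and 4 of them were higher by sign. Rsad2, which encodes the radical SAM enzyme viperin, had means of 771 and 998 normalized counts in the authors' deposited table and a deposited log2 fold change of 0.37 (SE 0.52). Its neighbour Cmpk2, a mitochondrial nucleotide kinase that is read from the opposite strand of chromosome 12, had 438 and 554 normalized counts in the authors' deposited table, where the log2 fold change was 0.34 (SE 0.46). The adjacent pair thus shifted by similar amounts, each smaller than its own standard error. Mx1 and Mx2, dynamin-like GTPases that block viral ribonucleoproteins and of which at least Mx1 is defective in most inbred laboratory strains, had log2 fold changes of 0.15 and -0.090 (SE 0.39 and 0.35, respectively) in the authors' deposited table. Bst2, the tetherin that holds budding virions at the membrane, stood at 653 and 791 normalized counts in the authors' deposited table, where the log2 fold change was 0.27 (SE 0.16, DESeq2 adjusted p 0.318).

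The guanylate-binding proteins, GTPases that coat and break vacuoles of intracellular microbes, had the 4 highest fold changes of the 38 genes. All 4 lie on the plus strand of chromosome 3, between 142493978 and 142638008. Gbp2 (ENSMUSG00000028270.12, chromosome 3, 142620602 to 142638008) had means of 153 and 299 normalized counts in the authors' deposited table, where the log2 fold change was 0.97 (SE 0.35, DESeq2 adjusted p 0.0571). Gbp5 (ENSMUSG00000105504.4, chromosome 3, 142493978 to 142522344), which also promotes inflammasome assembly, had 38.4 and 102 normalized counts in the authors' deposited table, where the log2 fold change was 1.41 (SE 0.63, DESeq2 adjusted p 0.150). The means in smoke were close to 2-fold those in room air or above in the authors' deposited table, yet no gene passed the threshold. Gbp3, at 67.3 and 133 normalized counts in the authors' deposited table, had 1.00 on the log2 scale (SE 0.42, DESeq2 adjusted p 0.124). Gbp7, at 138 and 249.8 normalized counts in the authors' deposited table, had 0.87 on the log2 scale (SE 0.40, DESeq2 adjusted p 0.163), and its exons overlap Gm43802 on the same strand. The 4 intervals from the authors' deposited table all lay above zero, the lowest bound being 0.086 for Gbp7. The genes are paralogs, and whether shared reads tie their values together was not tested.

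The family members on chromosome 5, which are not among the 38 genes, did not lie on 1 side of zero. In the authors' deposited table Gbp4 and Gbp6 had log2 fold changes of 0.018 and 0.21 (SE 0.32 and 0.39, respectively), while Gbp8 and Gbp9 had -0.52 (SE 0.30) and -0.57 (SE 0.22). None of these 4 passed the threshold, and in the authors' deposited table Gbp9 came nearest (DESeq2 adjusted p 0.0862). The difference between the clusters was not tested.

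Among the other neighbouring members, the PARP14, PYHIN and Schlafen genes of the class were lower by sign, with smaller fold changes, while PYHIN and Schlafen relatives outside the class lay on both sides of zero. Parp14, a mono-ADP-ribosyltransferase (ENSMUSG00000034422.14, chromosome 16, 35832874 to 35871544, minus strand), had means of 2716 and 2070.05 normalized counts in the authors' deposited table, where the log2 fold change was -0.39 (SE 0.15, DESeq2 adjusted p 0.0921). Beside it, Parp9 and its ubiquitin ligase partner Dtx3l had log2 fold changes of -0.26 and -0.28 (SE 0.17 and 0.16, respectively) in the authors' deposited table, and exons of these 2 genes overlap on opposite strands. The group of 3 was the only role group of more than 2 genes with every member lower by sign, and none of the 3 was called. The PYHIN family genes of chromosome 1 are relatives of cytosolic DNA sensors. Ifi203 (ENSMUSG00000039997.16, 173920407 to 173942672, minus strand) had means of 1411 and 1217 normalized counts in the authors' deposited table, where the log2 fold change was -0.21 (SE 0.33, DESeq2 adjusted p 0.768). Ifi204 (ENSMUSG00000073489.6, 173747293 to 173766943, minus strand) had 1250.02 and 1039 normalized counts in the authors' deposited table, where the log2 fold change was -0.26 (SE 0.25, DESeq2 adjusted p 0.588). Ifi203 shares exons with Mndal on its strand, and Ifi203 and Ifi204 are close paralogs. Of the chromosome 1 relatives outside the class, the authors' deposited table had Ifi205 at 0.33 (SE 0.36), Ifi207 at -0.43 (SE 0.19) and Ifi209 at -0.17 (SE 0.26) on the log2 scale, with 0 of these 3 called. The Schlafen genes of chromosome 11 are regulators of cell growth. Slfn5 (ENSMUSG00000054404.13, 82951349 to 82964840, plus strand) had means of 2483 and 2236 normalized counts in the authors' deposited table, where the log2 fold change was -0.15 (SE 0.29, DESeq2 adjusted p 0.823). Slfn8 (ENSMUSG00000035208.16, 83002158 to 83020810, minus strand) had 975.1 and 818 normalized counts in the authors' deposited table, where the log2 fold change was -0.25 (SE 0.21, DESeq2 adjusted p 0.513). The Schlafen relatives outside the class in the authors' deposited table were Slfn4 at 1.69 (SE 0.74), Slfn1 and Slfn2 both at 0.17 (SE 0.56 and 0.19, respectively) and Slfn9 at -0.58 (SE 0.36) on the log2 scale, and 0 of these 4 were called.

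The remaining 6 members gave no call, and 3 were higher and 3 lower by sign. Lgals3bp, a secreted glycoprotein that binds galectins (ENSMUSG00000033880.11, chromosome 11, 118392751 to 118402092, minus strand), was the most abundant member at 3408 and 3945 normalized counts in the authors' deposited table, where its log2 fold change came to 0.21 (SE 0.12, DESeq2 adjusted p 0.301). Trim30a, a restraint on signalling by Toll-like receptors (ENSMUSG00000030921.17, chromosome 7, 104409025 to 104465193, minus strand), had 1826 and 1554 normalized counts in the authors' deposited table, where its log2 fold change came to -0.23 (SE 0.19, DESeq2 adjusted p 0.502). The authors' deposited table gave Xaf1, an antagonist of the apoptosis inhibitor XIAP, a value of -0.21 on the log2 scale (SE 0.14) and Ifi35 one of 0.20 (SE 0.14). Ifi44 and the receptor chaperone Rtp4 were at 0.052 and -0.0050 (SE 0.39 and 0.19, respectively) in the authors' deposited table. Per kilobase of the longest transcript, the level over the 6 libraries was highest for Lgals3bp (1578 normalized counts per kilobase), Bst2 (912) and Ifit3 (542), and lowest for Gbp5 (18.7), Ddx60 (31.6) and Mx2 (34.5), from the group means of the authors' deposited table.

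The sign of a member's fold change followed the length of its transcript, as it did across all genes. Over the 38 members, Spearman's rho between the log2 fold change of the authors' deposited table and the length of the longest transcript was -0.484, and with GC content it was 0.437. The same measures over 12071 tested genes were -0.448 and 0.483, which is of similar size. Of the 19 members longer than the median of 3651 nucleotides, 15 were lower by sign in the authors' deposited table, with a median log2 fold change of -0.21. Of the 19 shorter members 7 were lower and 12 higher, with a median of 0.11. The 4 called genes have longest transcripts of 3869 (Irf9), 4313 (Eif2ak2), 4767 (Herc6) and 5330 (Samd9l) nucleotides, all in the longer group.

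When a smooth trend in both properties was removed from the fold changes of the authors' deposited table, 153 of 12071 genes (1.27%) kept or gained an adjusted p under 0.05, and 0 members were among them. Irf9 kept its size, at -0.30 against -0.30, and its adjusted p became 0.0638 with the DESeq2 standard error. The others shrank, to -0.32 for Eif2ak2 (adjusted p 0.308), -0.27 for Samd9l (0.686) and -0.15 for Herc6 (0.795), again with the DESeq2 standard errors. Among members not called, Ddx60 shrank to -0.24 (adjusted p 0.792), Isg20 to 0.17 (0.852) and Parp14 to -0.15 (0.811), with the same standard errors. The guanylate-binding proteins hardly moved or grew. Their median was 0.98 as deposited and 1.08 without the trend, and the lowest of the 4, Gbp2, stood at 0.96. The DESeq2-based adjusted p of the 4 after this step lay between 0.139 for Gbp7 and 0.317 for Gbp5. Signs changed to positive for Ifit1, Ifit2, Ifi203 and Slfn5 and to negative for Usp18, Irf7, Bst2, Ifi35 and Lgals3bp, so the signs of these genes depend on this step. Ifit3, Ifi204 and Slfn8 stayed negative, at -0.28, -0.17 and -0.10. Whether the trend has a biological or a technical source was not tested.

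**Figure D3:**
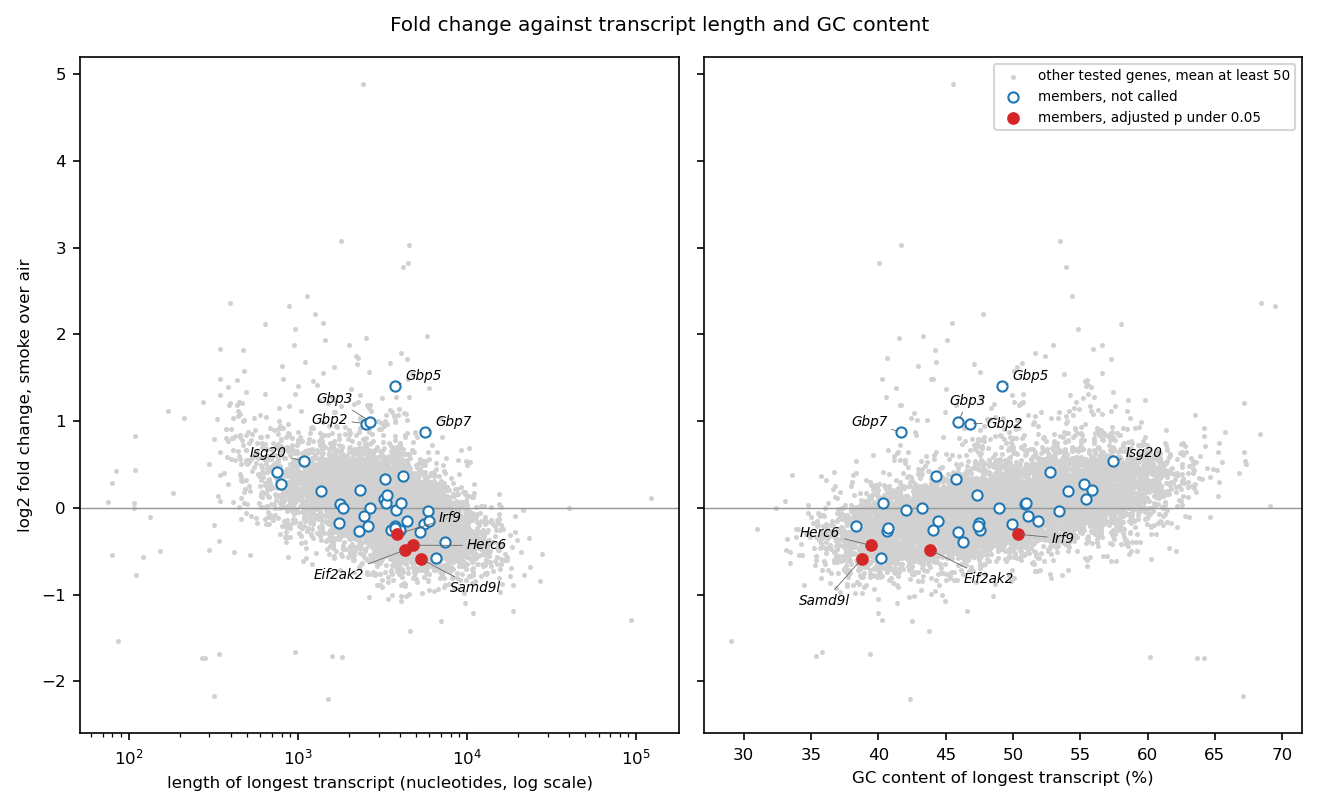
Log2 fold change, cigarette smoke over room air, against the length of the longest transcript (left, log axis) and its GC content (right), for tested genes averaging 50 normalized counts or more (grey) and the 38 members (circles). The cloud of all genes falls with length and rises with GC content, the 4 called members (filled) sit inside it, and Gbp2, Gbp3, Gbp5 and Gbp7 sit above most of it.

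The members were lower in these 6 libraries than in the rest of the deposited fit, by a ratio that varied widely among them. The 24-library mean of the authors' deposited table contains 18 further libraries, whose groups are not given in the sources used here. The mean of those 18, derived from the 3 deposited means, exceeded the mean of the 6 libraries for all 38 members, against 55.3% of all genes tested. The median ratio was 5.77 for the members and 1.09 for all genes tested, and 23 of 38 members had a ratio above 5, against 6.33% of all genes tested. Gbp5 had the largest ratio, 114, followed by Rsad2 at 40.8, Gbp3 at 39.1, Gbp2 at 35.8, Cmpk2 at 32.9, Mx1 at 32.8, Mx2 at 28.5 and Ifit1 at 22.8. The level of Rsad2 over the 18 libraries came to 36133 normalized counts, against 771 and 998 in the groups described here, both from the authors' deposited table. The other 15 members had ratios of 5 or less, from Lgals3bp at 1.79, Rtp4 at 1.88, Bst2 at 2.06 and Irf9 at 2.08 upward. The pattern was not particular to the members. In the authors' deposited table the 24-library mean exceeded both group means for all 8 genes of the OAS family. Oasl1, for example, stood at 4704 against 104 in room air and 138 in smoke. Of the 47 further interferon-stimulated genes listed below, Gbp8 alone did not follow, at 44.2 against 76.4 and 51.4.

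The standard errors come from the fit to all 24 libraries. Across the 38 members the Spearman rho between the deposited standard error and the ratio of the other libraries to these 6 was 0.838, while over 12071 tested genes it was -0.0503. This is a description across genes that share the same libraries and fit. Compared with the median standard error of tested genes whose mean over the 6 libraries lay within 1.5-fold, 30 of the 38 members had a larger one, 12 of them more than 2 times as large. The median of this comparison was 1.35 and the highest was 3.61, for Rsad2. What the 18 libraries contribute to these standard errors was not tested.

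**Figure D4:**
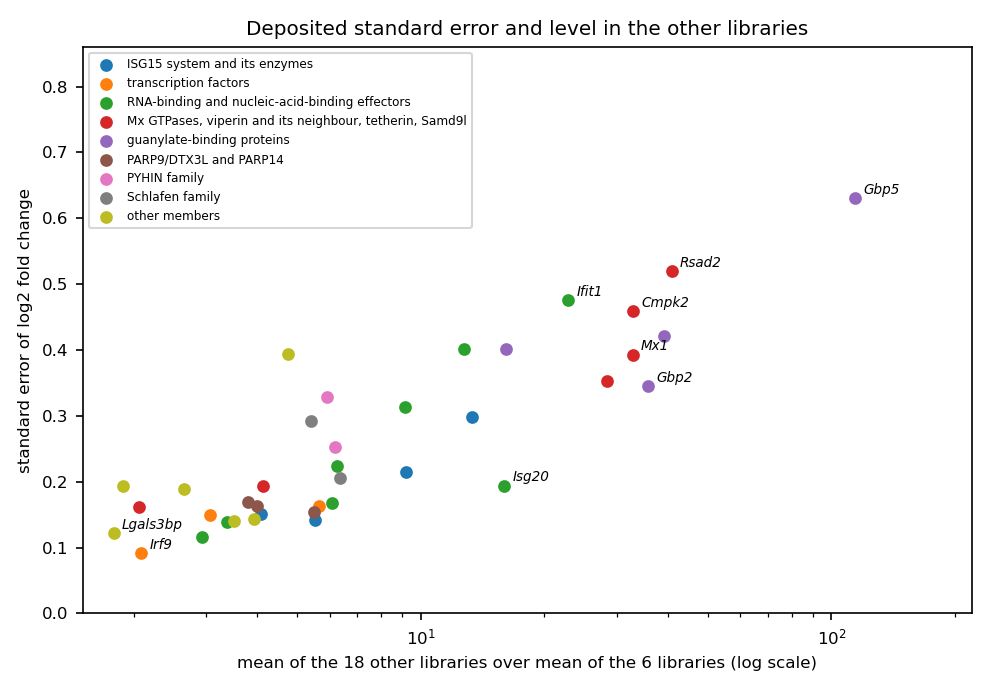
Deposited standard error of the fold change (log2 scale, authors' deposited table) against the mean of the 18 other libraries over the mean of the 6 libraries (log axis), 1 point for each of the 38 genes, coloured by role. The points run from Lgals3bp and Irf9 at ratios of 1.79 and 2.08 to Gbp5 at 114 with a standard error of 0.63.

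The genes that carry and restrain the interferon signal were read from a list of 25 receptors, kinases, factors and feedback genes. Of the 25, 2 were called higher after smoke and 0 were called lower in the authors' deposited table, where 7.69% of all tested genes were called (4.15% higher). The median log2 fold change of the 25 was 0.10. Both called genes encode suppressors of cytokine signalling, which bind JAK kinases and are induced by the pathways they restrain. Socs3 had means of 16.1 and 65.8 normalized counts in the authors' deposited table, where the log2 fold change was 2.06 (SE 0.55, DESeq2 adjusted p 0.00734). Socs1 was near the low end of detection, at 2.88 and 9.84 normalized counts in the authors' deposited table, where the log2 fold change was 1.67 (SE 0.57, DESeq2 adjusted p 0.0457). After the trend in length and GC content was removed, the log2 fold change was 1.79 for Socs3 (adjusted p 0.0692 with the DESeq2 standard error) and 1.42 for Socs1 (adjusted p 0.232), so both stayed positive and neither passed the threshold. The authors' deposited table held Ifnb1, the gene of interferon beta, at 0.20 and 0.70 normalized counts.

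In a list of 47 further interferon-stimulated genes, 1 was called higher and 1 lower in the authors' deposited table, against the 7.69% of all tested genes called there, with a median log2 fold change of -0.041, and neither call held with the length and GC trend removed. The lower one was Rnf213, a giant ubiquitin ligase, at 6926 and 4779 normalized counts in the authors' deposited table, where the log2 fold change was -0.54 (SE 0.15, DESeq2 adjusted p 0.0123), and without the trend -0.26 (adjusted p 0.559). The higher one was Lgals9, which encodes galectin-9, at 874 and 1192 normalized counts in the authors' deposited table, where the log2 fold change was 0.44 (SE 0.14, DESeq2 adjusted p 0.0318), and without the trend 0.24 (adjusted p 0.564). In the OAS family 1 of 8 genes, Oas2, was called lower in the authors' deposited table and 4 were lower by sign, and the median of the 8 was -0.017. Oas2 remained called without the trend, at -0.56 (adjusted p 0.0441 with the DESeq2 standard error).

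Marker genes were read to see which cells the libraries held. All 7 macrophage markers were present, at means from 375 to 23970.4 normalized counts, and none was called in the authors' deposited table. Their sums in the authors' deposited table were 49663 in room air and 50909 in smoke. Of the 7 neutrophil markers, 2 were listed, with a summed level of 0.122 in room air and 0.195 in smoke in the authors' deposited table. Of 4 B cell markers 2 were listed, with sums of 0.251 and 0.0976, and of 4 T cell markers only Cd4 was listed, at 29.0 and 22.4 normalized counts in the authors' deposited table. For plasmacytoid dendritic cells, strong producers of interferon, 3 of 5 markers were listed, with sums of 1001 and 734 that came almost wholly from Tcf4, at 999 and 731 normalized counts in the authors' deposited table. Their marker Siglech stood at 0.767 and 0 normalized counts in the authors' deposited table, and Cox6a2 at 1.96 and 3.84. Of 4 dendritic cell markers 3 were listed, with sums of 32.2 and 109 that came almost wholly from Itgax, at 31.7 and 108 normalized counts (DESeq2 adjusted p 0.0571 in the authors' deposited table), while Flt3 was not listed and Zbtb46 and Xcr1 stood at 1.02 or less. All 5 stromal markers were listed, with sums of 43.6 and 9.38, and none of the erythroid or mast cell markers was listed in the authors' deposited table. The part of Itgax and the stromal genes in the values above was not tested. In bulk RNA a change in the share of a cell type cannot be told apart from a change of RNA per cell.

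Splicing within the members was measured by JuncBASE, which reports a percent inclusion for each event in each library. It held 89 events in 22 of the 38 members, 34 of them retained introns in 14 genes. Read depth per library is unknown, and the number of missing levels gives the only view of it. Of the 89 events, room air replicate 1 lacked a level in 1 and the other room air libraries in 0. Cigarette smoke replicate 1 lacked a level in 14 events, replicate 2 in 7 and replicate 3 in 0. Over all 10376 events cigarette smoke replicate 1 likewise lacked the most levels, 4169.

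With all 6 libraries in the fit no event in a member passed the test, and the retained introns leaned to lower levels after smoke as introns did across the genome. In limma on log2 odds of inclusion, with Benjamini-Hochberg adjustment over all 10376 events, 0 of the 89 events had an adjusted p under 0.05 (lowest 0.162), and 0 of all events did. Over all events the count depended on the settings, with 241 at a pseudocount of 0.1 and 23 of 5933 when a level in all 6 libraries was required, while 0 in the members passed in either case. Without cigarette smoke replicate 3, 10 of the 68 member events that could be fitted passed (14.7%, lowest adjusted p 0.0148), against 11.9% of 6018 events. An unadjusted limma p under 0.05 was found for 17 of the 89 events (19.1%), against 10.8% of all events, and all 17 had lower inclusion after smoke. The p-values in the authors' deposited table of these events were under 0.05 before correction for 3 of the 89 (3.37%), against 4.15% of all events. By those p-values the members' share over all event types was not above the background. For retained introns alone it was 2 of the 34 (5.88%), against 1.88% of all 3305. After correction 0 of the 89 remained under 0.05. With the replicate number as a block, the limma share was 10.1% (9 of 89), against 7.71% of all events. Of the 17, 13 were retained introns, which is 38.2% of the 34, against 20.9% of all 3305 retained introns. By gene, 5 of the 17 lay in Stat2, 3 in Xaf1 and 2 in Irf9, and events of the same gene are not independent. By sign 32 of the 34 introns were lower after smoke, against 89.9% of all retained introns.

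The level of retention by library shows the size of this shift. In the 29 introns with a level in all 6 libraries, mean retention was 12.6%, 14.9% and 11.9% in room air replicates 1, 2 and 3. The smoke libraries, in the same order, had 7.17%, 7.34% and 10.2%. This gives 13.1% ± 1.57 (SD, n = 3) for room air and 8.22% ± 1.68 (SD, n = 3) for smoke, with no overlap between the groups. The median difference over the 29 introns was -3.70 percentage points, and over all 1992 such introns of the data it was -3.84. In 14 of the 29 introns (48.3%) all smoke levels lay below all room air levels, against 38.7% of all retained introns, and in 0 were all above. Without cigarette smoke replicate 1, which lacked the most levels, the median difference was -3.74.

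**Figure D5:**
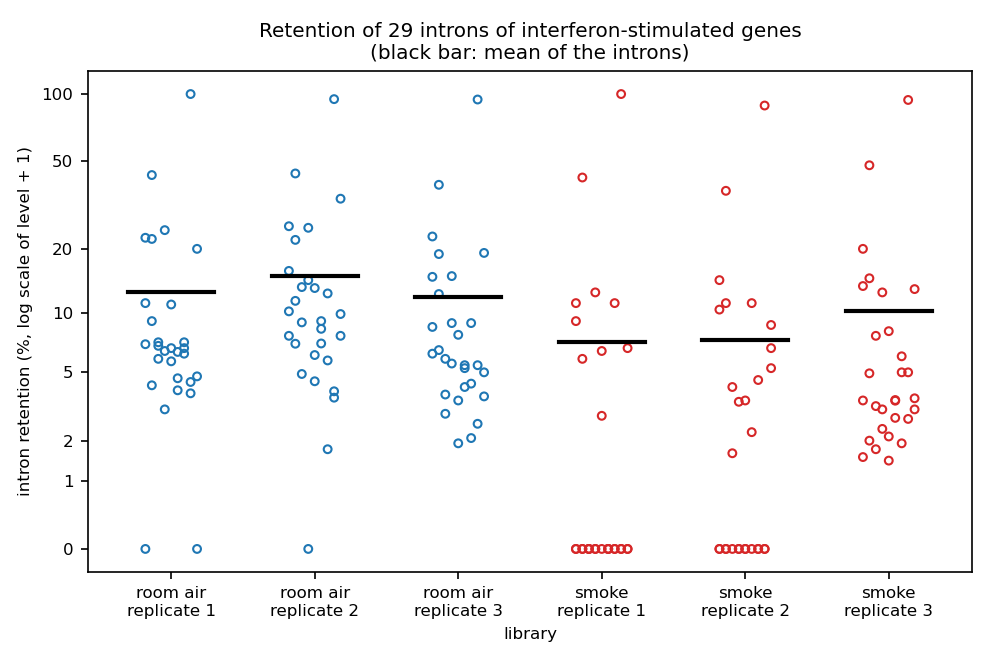
Retention level in percent (log axis of level + 1) of the 29 introns of member genes that had a level in all 6 libraries, by library, with a bar at the mean of the introns. The means are 12.6%, 14.9% and 11.9% in room air and 7.17%, 7.34% and 10.2% after smoke, and levels of exactly 0% collect in cigarette smoke replicates 1 and 2.

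The 8 events with the lowest p-values were introns of Stat2, Mx1, Irf9, Adar, Herc6 and Xaf1, and 6 of the 8 were at 0% in smoke replicates 1 and 2. All but the Mx1 intron overlap an exon of another annotated transcript of the same gene. Reads in them can thus come from that exon. In Stat2 an annotated intron (chromosome 10, 128283158 to 128283232, plus strand) was retained at 6.98%, 10.1% and 8.51% in room air and at 0%, 0% and 1.54% in smoke (limma, adjusted p 0.162). All 8 retained introns measured in Stat2 were lower after smoke by sign, with a median difference of -4.01 percentage points. In Irf9 an annotated intron (chromosome 14, 55606609 to 55607513, plus strand) was at 9.09%, 7.02% and 6.52% in room air and at 0%, 0% and 2% in smoke (limma, adjusted p 0.186). The intron just before it in Irf9 (chromosome 14, 55606439 to 55606536) went from 5.71%, 4.48% and 3.51% to 0%, 0% and 1.45% (limma, adjusted p 0.247). A longer Stat2 intron (chromosome 10, 128282806 to 128283112) was at 6.38%, 8.33% and 5.45% in room air and at 0%, 0% and 2.78% in smoke (limma, adjusted p 0.277). In each of these the 3 smoke levels lay below the 3 room air levels.

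The same order held in Adar and Herc6. The Adar intron (chromosome 3, 89736274 to 89737989, plus strand) was at 5.88%, 8.96% and 5.88% in room air and at 0%, 0% and 1.75% in smoke (limma, adjusted p 0.186). The Herc6 intron (chromosome 6, 57604201 to 57607041, plus strand) was at 6.45%, 14.3% and 8.89% in room air and at 0%, 0% and 3.12% in smoke (limma, adjusted p 0.234). In Mx1 an intron (chromosome 16, 97455644 to 97456221, minus strand) had no level in room air replicate 1 or cigarette smoke replicate 2, stood at 7.69% and 12.5% in the remaining room air libraries and at 0% in the remaining smoke libraries (limma, adjusted p 0.186). The Mx1 value thus rests on 4 libraries.

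Among the 7 measured introns that averaged 10% or more, 5 were lower by sign, and their differences ran from -14.9 to 0.56 percentage points. In Ifi35 an intron (chromosome 11, 101457998 to 101458200, plus strand) was at 22.5%, 25.4% and 22.8% in room air and at 11.1%, 10.3% and 13.4% in smoke (limma, adjusted p 0.407). In Xaf1 an intron (chromosome 11, 72304862 to 72306563, plus strand) was at 20%, 33.9% and 19.2% in room air and at 6.67%, 8.7% and 13.0% in smoke (limma, adjusted p 0.384). A less retained Xaf1 intron (chromosome 11, 72308925 to 72311955) was at 9.09%, 15.4% and 5.41% in room air and at 0% and 2.13% in cigarette smoke replicates 2 and 3, with no level in replicate 1 (limma, adjusted p 0.332). The 4 measured introns of Xaf1 were all lower by sign, with a median difference of -11.6 percentage points, the largest of any member with an intron measured. By contrast the most retained intron of Irf7 (165 bases) was at 43.4%, 44.1% and 39.2% in room air and at 42.3%, 36.8% and 48.0% in smoke, so its groups overlapped fully. An Adar intron of 296 bases likewise overlapped, with means of 13.9% and 14.5%. The Adar event of 117 bases, with the highest level of all in the members, had means of 96.5% and 94.3%. It is not an annotated intron and overlaps an annotated exon of Adar, so its level may be that of an exon. It is among these 7 introns and among those behind the means by library. The Ifi35 intron, the Irf7 intron and the Adar intron of 296 bases also overlap annotated exons of their genes.

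Events other than retained introns passed at about the share found over all genes. Of 55 such events in the members, 4 (7.27%) had an unadjusted limma p under 0.05, in Xaf1, Stat2, Slfn8 and Zbp1, against 6.15% of all 7071. The Slfn8 event, an alternative donor on chromosome 11 (83004781 to 83013364, minus strand), was used at 11.8%, 10.4% and 5.71% in room air and at 0% and 3.51% in cigarette smoke replicates 2 and 3, with no level in replicate 1 (limma, adjusted p 0.413). Irf7, with 9 events, had none with an unadjusted limma p under 0.05.

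The authors' deposited rMATS table gave a further view of introns from junction and intron-body reads. Its differences are set 1 minus set 2, and the groups behind these sets are not named, so no direction is drawn from it. The table held 18 retained introns in 13 members, and 6 of them (33.3%) had a false discovery rate under 0.05, against 14.5% of all 3887 introns in the authors' deposited table. At a false discovery rate under 0.01 there were 4, or 22.2% against 7.77% of all introns, and with a difference of at least 10 points 2, or 11.1% against 4.43%. All 6 had the higher level in set 1, as had 95.04% of the 565 introns past that threshold over all genes of the authors' deposited table. They lay in Xaf1, Lgals3bp, Ifi35, Adar and Isg20, and the 2 introns of Lgals3bp overlap each other.

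In the authors' deposited table the Xaf1 intron (chromosome 11, 72306653 to 72308606, plus strand) had a difference of 4.7 points (false discovery rate 2.75e-08). The Ifi35 intron that JuncBASE also measured had one of 10.4 points in the authors' deposited table (false discovery rate 0.000604). For Adar the intron named above had 3.4 points in the authors' deposited table (false discovery rate 0.0142). These 3 introns have the same coordinates in JuncBASE, where smoke minus room air was -5.78, -12.0 and -6.32 percentage points in turn. In Lgals3bp (chromosome 11, minus strand) an annotated intron from 118394123 to 118396590 had a difference of 1.3 points in the authors' deposited table (false discovery rate 5.19e-07). The largest difference among the 6 introns of that authors' deposited table, 35.2 points (false discovery rate 0.00600), belonged to an unannotated variant of that intron starting at 118394243. The intron of Isg20 (chromosome 7, 78916734 to 78920045, plus strand) had 1.8 points in the authors' deposited table (false discovery rate 0.0482).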

How the data were processed

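The members and all lists were chosen with earlier results of these data known. Gene values are those of the authors' deposited table: group means of normalized signal (counts divided by size factors), log2 fold changes with standard errors, a Wald score, p-values and adjusted p-values. The submitters' processing notes name mm10, STAR, DESeq2, SAMtools 1.9 and bedtools 2.27.1, with no role. Percent inclusion per library (JuncBASE), its p-values, and the rMATS differences (a score from -1 to 1) were deposited by the authors; 6 per-sample rMATS columns were not used. No counts per library were used here, so the planned count test was replaced by a description, and depth is unknown.

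The level of the 18 other libraries was derived as 24 times the 24-library mean, minus 3 times each group mean, over 18. Inclusion p was tested with limma 3.58.1 (R 4.3.3) on log2((p + 1)/(100 - p + 1)), for events with at least 2 levels in each group. Intervals are the log2 fold change with its standard error at 95% confidence. Positions, lengths and GC content came from GENCODE M21 (GRCm38), matched for 99.9% of genes. The trend was fitted with weighted natural splines of 4 degrees of freedom (statsmodels 0.14.6, patsy 1.0.2), and both fits were tested on simulated data. Values are given in full for called members and, in each role group, for the most abundant member and the one with the largest change. Events named are the 8 lowest limma p-values and rMATS introns with a false discovery rate under 0.05; the further introns and genes named, among them Gbp3, Gbp7, Isg20 and the Ifi35 and Irf7 introns, were chosen after their values were seen. Alternatives were other thresholds, pseudocounts and filters, the trend removed, a replicate block and leaving out each library.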

Additional observations from a re-analysis of the deposited data

How the results depend on the processing

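The count of 4 called members, all lower, became 8 at an adjusted p under 0.1, of which 6 were lower and 2 (Isg20 and Gbp2) higher, where 12.8% of all tested genes passed. It became 0 at an adjusted p under 0.01 (3.03% of all) and 0 with the trend in GC content and length removed (1.27% of all), and it stayed 4 with a minimum mean of 50. The median log2 fold change lay between -0.059 and -0.032 in all 4 of its alternatives. Unadjusted splicing calls went from 17 of 89 (19.1%, against 10.8% of all events) to 9 with the replicate block (10.1% against 7.71%) and to 3 with the p-values of the authors' deposited table (3.37% against 4.15%). They ranged from 11 to 20 when 1 library was left out, and the 20 were of the 68 events that could be fitted without cigarette smoke replicate 3 (29.4% against 21.98%). Adjusted splicing calls ranged from 0 to 10 in those fits, and the 10 came without cigarette smoke replicate 3 (14.7% of 68, against 11.9% of 6018 events), where 9 of the 10 had both remaining smoke levels at exactly 0% or 100%, as had 94.8% of 717 calls over all events. Replicate numbers did not pair the libraries: deviations of same-numbered libraries had r of 0.0177, -0.0404 and -0.0888 over 5933 events. The median retention difference of -3.70 points became -12.0 over the 7 introns averaging 10% or more, where 5 of 7 were lower, the means differed by -7.79 and the median over all introns so filtered was -5.72, and ranged from -4.57 to -3.55 with 1 library left out. The 6 of 18 rMATS introns (33.3%, against 14.5% of all introns) became 2 with a minimum of 10 points (11.1% against 4.43%) and 4 at a false discovery rate under 0.01 (22.2% against 7.77%). No library could be left out of the expression comparison, since only group means were used here, and pseudocounts or tests on values per library were not run. Depth, unknown here, limits what the levels of exactly 0% can show.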
